A study of Mus musculus with 47 samples.

Results

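The proteasome genes were taken as every entry of the lung, blood and aorta arrays whose symbol began with Psma, Psmb, Psmc, Psmd, Psme, Psmf or Psmg followed by a digit, which gave 44 of 18138 entries, 1 for each gene. Young male C57BL/6J mice had inhaled gas metal arc-stainless steel welding fume (GMA-SS) at 40 mg/m3 for 3 hr/d on 10 d, or air as the control. Tissue was taken 4 hr or 28 d after the last exposure. RNA of whole lung homogenate, whole blood cells and aorta was hybridised to Illumina mouse beadchips, each sample on an array of its own. Each tissue had a GMA-SS group and an air group at each time with 4 arrays per group, except aorta at 4 hr after GMA-SS with 3, for 47 arrays in 12 groups. Each beadchip held 1 tissue at 1 time, with the air samples in the first positions and the GMA-SS samples in the others, so that position and exposure cannot be told apart. Blood and aorta came from mice of the same numbers and lung from other mice. The question put to the 44 genes was whether the interferon-inducible ones, Psmb8, Psmb9, Psmb10, Psme1 and Psme2, differed between GMA-SS and air in the same measure as the constitutive ones.

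The proteasome degrades proteins that carry ubiquitin chains. Its core particle is a barrel of alpha rings, which gate the entry, around beta rings, and 3 beta subunits of each ring cut the substrate: Psmb5 encodes the chymotrypsin-like subunit, Psmb6 the caspase-like subunit and Psmb7 the trypsin-like subunit. A regulatory particle on the end of the barrel binds the ubiquitin chain and unfolds the protein, with a ring of ATPases encoded by the Psmc genes and a lid and base of other subunits encoded by the Psmd genes. In cells that receive interferon gamma, and at all times in many leukocytes, Psmb8 (LMP7), Psmb9 (LMP2) and Psmb10 (MECL-1) are built into new core particles in place of Psmb5, Psmb6 and Psmb7, which gives the immunoproteasome. The activator PA28, a ring of Psme1 and Psme2 subunits, is induced by the same signal. Peptides cut by the immunoproteasome are carried by Tap1 and Tap2 to major histocompatibility complex class I molecules.

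The windows around the start sites of some of these genes are shown because the inducible genes and their counterparts are compared throughout. Interferon also acts on such genes through short promoter elements. RefSeq promoters (GRCm38.p6, 250 bases before and 50 after the start site) were matched for 38 of the 44 genes. Both strands were searched for GAAANNGAAA (the core of the interferon-stimulated response element), TTCNNNGAA (the gamma-activated site) and TGACNNNGC (the core of the antioxidant response element), and matched bases are in capitals.
Psmb8: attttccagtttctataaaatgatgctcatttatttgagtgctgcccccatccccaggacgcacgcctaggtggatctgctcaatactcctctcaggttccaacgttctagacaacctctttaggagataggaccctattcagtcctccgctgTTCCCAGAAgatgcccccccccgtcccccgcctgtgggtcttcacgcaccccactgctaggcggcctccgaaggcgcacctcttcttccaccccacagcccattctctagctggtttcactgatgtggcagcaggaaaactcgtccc
Psmb9: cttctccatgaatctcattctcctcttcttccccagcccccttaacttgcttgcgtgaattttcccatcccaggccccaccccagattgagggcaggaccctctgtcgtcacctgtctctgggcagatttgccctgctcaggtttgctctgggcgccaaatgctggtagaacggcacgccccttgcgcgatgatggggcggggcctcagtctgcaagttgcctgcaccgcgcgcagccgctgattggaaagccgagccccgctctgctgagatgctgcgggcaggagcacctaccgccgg
Psme1: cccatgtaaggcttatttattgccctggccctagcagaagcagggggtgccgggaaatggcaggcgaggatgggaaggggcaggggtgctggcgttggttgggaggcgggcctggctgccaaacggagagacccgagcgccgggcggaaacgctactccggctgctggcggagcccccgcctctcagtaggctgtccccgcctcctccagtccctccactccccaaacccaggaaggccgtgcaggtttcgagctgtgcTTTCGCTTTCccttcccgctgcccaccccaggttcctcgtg
Psmb5: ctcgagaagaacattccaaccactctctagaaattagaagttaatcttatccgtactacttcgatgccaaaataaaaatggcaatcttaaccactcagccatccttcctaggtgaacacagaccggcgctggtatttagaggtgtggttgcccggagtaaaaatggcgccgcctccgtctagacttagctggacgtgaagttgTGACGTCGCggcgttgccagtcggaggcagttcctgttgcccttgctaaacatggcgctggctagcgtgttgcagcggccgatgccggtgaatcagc
Psmb6: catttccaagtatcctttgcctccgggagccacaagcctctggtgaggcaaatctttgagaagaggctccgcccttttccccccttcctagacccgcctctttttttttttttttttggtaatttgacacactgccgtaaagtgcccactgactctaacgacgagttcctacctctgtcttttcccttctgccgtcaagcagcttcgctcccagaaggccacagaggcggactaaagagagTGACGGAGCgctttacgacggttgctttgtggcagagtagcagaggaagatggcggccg
The window of Psmb8 (chr17:34197945-34198244, plus strand) held a match to the gamma-activated site at bases 154 to 162. The window of Psmb9 (chr17:34187281-34187580, minus strand), in the same part of chromosome 17, held none of the 3 motifs. Those of Psmb10 and Psme2, which are not printed, held none of them either. Among the 5 inducible genes 1 held the interferon-stimulated core, 1 the gamma-activated site and 0 the antioxidant core. Psme1 (chr14:55578244-55578543, plus strand) held the interferon-stimulated core on the reverse strand at bases 260 to 269. The windows of the constitutive Psmb5 (chr14:54617946-54618245, minus strand) and Psmb6 (chr11:70525107-70525406, plus strand) each held the antioxidant core, at bases 204 to 212 and 242 to 250. Among the 38 genes with a window, 4 held the interferon-stimulated core (Psme1, Psmb3, Psmd4 and Psmd9), 2 the gamma-activated site (Psmb8 and Psmd2) and 6 the antioxidant core, against 3.99%, 9.55% and 14.0% of the 27025 genes with a window. These matches are a description of the letters in the windows and not of binding.

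Values are log2 normalized intensities, set separately in each tissue, and 39 of the 44 genes in lung, 38 in blood and 39 in aorta passed the detection filter, which asked for 3 or more arrays of a tissue with a detection p under 0.05. Psma1, Psma3 and Psma6, 3 subunits of the alpha ring that every core particle holds, were not above background on any array of any tissue, and each of their entries reads a single probe. Psmd5, an assembly chaperone of the regulatory particle, did not pass in any tissue. Psmd11 was not kept in lung and aorta, nor Psmb2 and Psmc6 in blood. The entries of Psmb2, Psmd2, Psmd5, Psmd6, Psmd9, Psmd11 and Psme4, and of Psmf1 outside lung, sum several probes. Among them Psmb2, Psmd5 and Psmd11 had a detection p under 0.05 on few arrays or none in each tissue. Psmb2 was kept in lung although no GMA-SS array at 4 hr had such a p. Its signal in blood was 889 to 1246, where the background mean was 79.9 to 95.8. A failed detection p of such a summed entry therefore does not show a signal at background. Psmc3ip met the naming rule but is a meiotic recombination factor and no proteasome subunit. The annotation also lists Psme2b, a close copy of Psme2, so that the Psme2 value is uncertain. Entries above background numbered 10239 to 10872 per lung array, 8090 to 8406 per blood array and 8678 to 9646 per aorta array, and the number of arrays limits the precision. All 8 alveolar epithelium markers were measured in lung, and erythroid markers summed to 17.28 to 17.40 (log2) in blood after globin depletion. All 6 smooth muscle and all 6 fat cell markers were measured in aorta. At 28 d the aorta fat cell sum was 15.55 to 15.83 after GMA-SS and 15.73 to 15.94 in air. That of smooth muscle was 13.76 to 14.13 and 13.61 to 13.83. The sum of 5 cardiac muscle markers was 11.59 to 14.02 and 12.81 to 13.65. The bearing of this mixed tissue on the aorta values was not tested.

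In lung at 4 hr after GMA-SS, all 3 catalytic subunits of the immunoproteasome were higher than in air. Psmb8 measured 10.06, 10.28, 9.93 and 9.56 in the GMA-SS arrays and 8.84, 9.12, 8.94 and 8.80 in the air arrays. The lowest GMA-SS array lay well above the highest air array. The difference was 1.03 on the log2 scale (2.04-fold, 95% CI 1.52 to 2.74, SE 0.20, adjusted p = 0.00162 by limma over all genes of the tissue). Psmb9 measured 12.82, 13.14, 12.55 and 12.36 after GMA-SS and 12.28, 12.16, 12.03 and 11.85 in air. The groups did not overlap, although the lowest GMA-SS array came within reach of the highest air array, and the difference was 0.64 (1.56-fold, SE 0.18, adjusted p = 0.0207). Psmb10 measured 12.68, 12.75, 12.56 and 12.40 after GMA-SS and 12.29, 12.26, 12.24 and 12.07 in air. Its groups were also apart and closer together, with a difference of 0.39 (1.31-fold, SE 0.13, adjusted p = 0.0388).

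Both subunits of PA28 were higher as well at 4 hr. Psme1 measured 13.42, 13.37, 13.22 and 13.22 in the GMA-SS lungs and 12.83, 12.82, 12.83 and 12.65 in the air lungs. The 2 groups were tight and apart, and the difference of 0.52 (1.44-fold, 95% CI 1.24 to 1.66, SE 0.10) had an adjusted p of 0.00124. Psme2 measured 10.72, 10.67, 10.70 and 10.58 after GMA-SS and 10.15, 10.36, 10.41 and 10.00 in air. The GMA-SS arrays were close to each other and the air arrays spread more, with a difference of 0.44 (1.35-fold, SE 0.14, adjusted p = 0.0359).

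**Figure D1:**
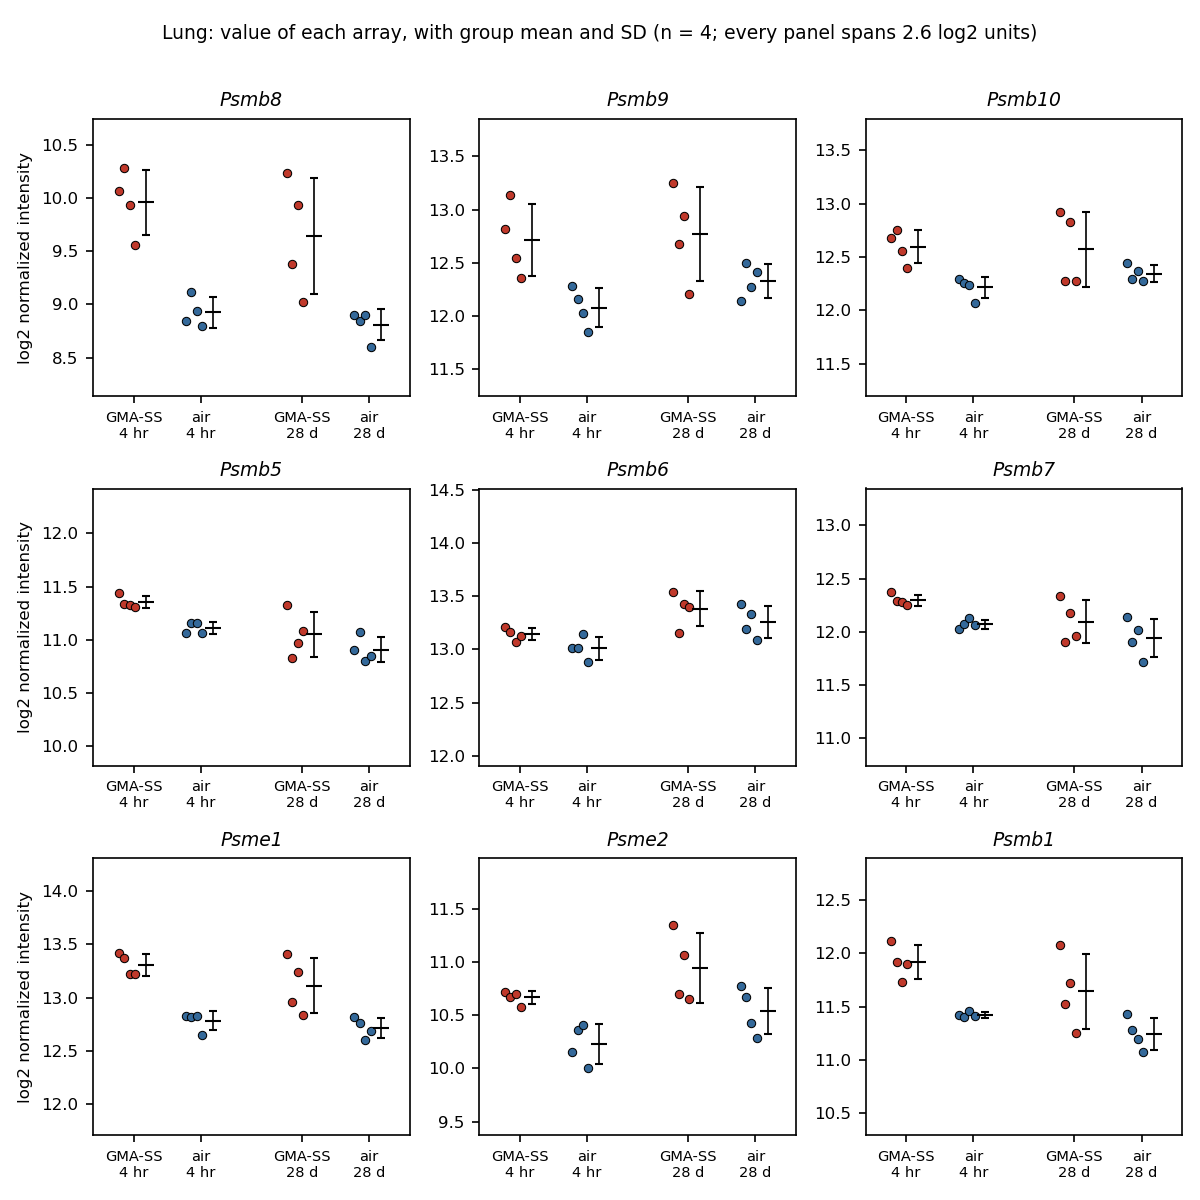
Log2 normalized intensity (y axis) of 9 genes in each lung array by exposure and time (x axis), with GMA-SS in red and air in blue, and the group mean and SD beside the points (n = 4). At 4 hr the GMA-SS points lie above the air points in every panel but that of Psmb6, and at 28 d only Psmb8 and Psme1 show groups that are apart.

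The constitutive catalytic subunits differed less and none passed the test at 4 hr. Psmb5 measured 11.44, 11.34, 11.33 and 11.31 after GMA-SS and 11.06, 11.16, 11.16 and 11.06 in air. The groups were apart by a small step, and the difference was 0.24 (1.18-fold, SE 0.09, adjusted p = 0.0572). Psmb7 measured 12.37, 12.29, 12.28 and 12.25 after GMA-SS and 12.03, 12.07, 12.13 and 12.06 in air, with a difference of 0.23 (SE 0.09, adjusted p = 0.0889). Psmb6 measured 13.21, 13.16, 13.07 and 13.13 after GMA-SS and 13.01, 13.01, 13.14 and 12.88 in air, and its groups overlapped (0.13, SE 0.08, adjusted p = 0.298). Each beadchip fitted alone gave adjusted p-values of 0.00563 for Psmb5 and 0.00407 for Psmb7. The fit with array weights gave 0.0192 and 0.0251, and a replicate block, numbered only by sample order, gave 0.0399 for Psmb7. The lack of a call for these 2 genes thus depends on the fit.

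Over all proteasome genes measured in lung at 4 hr, 9 of 39 were called higher and 0 lower, beside 9.58% of all genes called higher and 9.93% called lower. All 5 inducible genes were among the 9. Of the 34 others 4 were called, Psmb1, Psmd8, Psmd12 and Psma5. Groups did not overlap for 20 of the 39 with GMA-SS higher and for 0 with GMA-SS lower, beside 12.0% and 14.5% of all genes. The median difference was 0.52 for the 5 inducible genes and 0.12 for the 34 others, beside -0.04 for all 11133 genes, and 33 of the 39 lay above air, beside 4741 of all genes.

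Among the structural beta subunits Psmb1 stood out. It measured 12.12, 11.92, 11.73 and 11.90 in the GMA-SS arrays and 11.42, 11.40, 11.46 and 11.41 in the air arrays. The air arrays were nearly alike and every GMA-SS array was above them, and the difference of 0.50 (1.41-fold, SE 0.13, adjusted p = 0.0112) was as large as that of the PA28 genes. Psmb2, Psmb3 and Psmb4, which sit in the same ring and have no active site, had differences of 0.03 to 0.14. In the alpha ring Psma5 rose by 0.21 (SE 0.07, adjusted p = 0.0344), and Psma2, Psma4 and Psma7 had differences of 0.13 to 0.20 that did not pass. In the regulatory particle Psmd8 measured 12.61, 12.53, 12.55 and 12.51 after GMA-SS and 12.18, 12.37, 12.39 and 12.30 in air. The groups were apart, with a difference of 0.24 (SE 0.06, adjusted p = 0.0125). Psmd12, another lid subunit, rose by 0.22 (SE 0.07, adjusted p = 0.0288). Psmd14, the lid enzyme that removes ubiquitin, had a difference of 0.33 (SE 0.13, adjusted p = 0.0914), and Psmc6, an ATPase with a dim entry, one of 0.47 (SE 0.17, adjusted p = 0.0624). The other 5 ATPases had differences of -0.03 to 0.12. Psme3 and Psme4, which encode activators that interferon gamma does not induce, and Psmf1, an inhibitor, had differences of 0.04 to 0.07. The assembly chaperones measured, Psmg2, Psmg3, Psmd9 and Psmd10, lay between -0.09 and 0.19, and none passed.

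**Figure D2:**
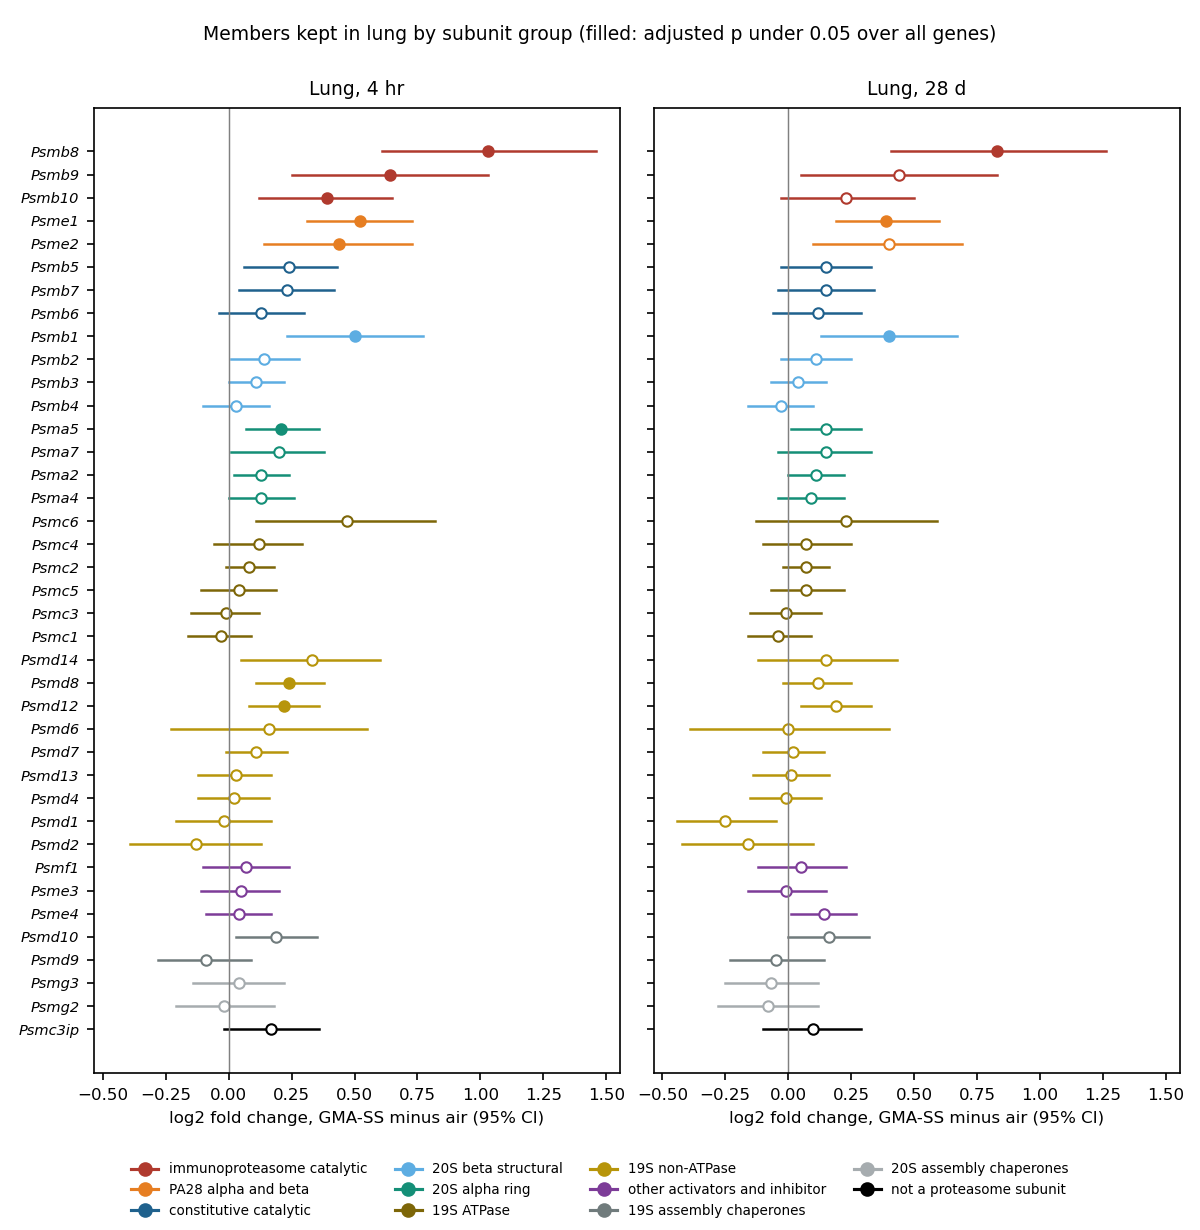
Log2 fold change in lung, GMA-SS minus air (x axis), with its 95% CI for each of the 39 proteasome genes measured, grouped and coloured by subunit class, at 4 hr on the left and 28 d on the right. Filled points have an adjusted p under 0.05 over all genes, 9 at 4 hr and 3 at 28 d, and the largest values are those of Psmb8 at 1.03 and 0.83.

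The calls of Psmb8, Psme1 and Psmb1 at 4 hr held without any single array. Without air array 1, air array 4, GMA-SS array 1 or GMA-SS array 2 the count of members called fell to 4. Psmb9 lost its call without air array 4 or GMA-SS array 1 or 2, and Psmb10 and Psme2 lost theirs without most single arrays. Psmd8 lost its call without air array 1 (adjusted p = 0.0511), Psmd12 without air array 1, 2 or 4 or GMA-SS array 1 or 2 (adjusted p of 0.0603 to 0.0945), and Psma5 without any single array other than GMA-SS array 3 (adjusted p of 0.0556 to 0.116).

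At 28 d the inducible genes were still higher on average, but the GMA-SS lungs had spread apart. Psmb8 measured 10.23, 9.38, 9.93 and 9.02 after GMA-SS and 8.90, 8.84, 8.90 and 8.60 in air. Arrays 1 and 3 of GMA-SS were high, array 4 was just above air, and the groups did not overlap. The difference was 0.83 (1.78-fold, 95% CI 1.33 to 2.39, SE 0.20, adjusted p = 0.00942). Psme1 measured 13.41, 12.96, 13.24 and 12.84 after GMA-SS and 12.82, 12.76, 12.60 and 12.69 in air, with the same 2 arrays on top. Its difference was 0.39 (1.31-fold, SE 0.10, adjusted p = 0.0112), and with each beadchip fitted alone it was 0.40 and not called (adjusted p = 0.0501). Psmb1 measured 12.08, 11.52, 11.72 and 11.25 after GMA-SS and 11.43, 11.28, 11.20 and 11.07 in air. GMA-SS array 4 lay inside the air range, and the difference was 0.40 (1.32-fold, SE 0.13, adjusted p = 0.0434). That call was lost without GMA-SS array 1, which brought the difference to 0.25, and without GMA-SS array 3 or air array 2, 3 or 4 at differences of 0.34 to 0.41.

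Psmb9, Psmb10 and Psme2 did not pass at 28 d. Psmb9 measured 13.25, 12.68, 12.94 and 12.21 after GMA-SS and 12.14, 12.50, 12.27 and 12.41 in air, with a difference of 0.44 (SE 0.18, adjusted p = 0.116). Psmb10 measured 12.92, 12.27, 12.83 and 12.27 after GMA-SS and 12.44, 12.29, 12.37 and 12.27 in air, with a difference of 0.23 (SE 0.13, adjusted p = 0.231). In both genes GMA-SS arrays 1 and 3 were above all air arrays and array 4 was within their range. Psme2 measured 11.35, 10.70, 11.06 and 10.65 after GMA-SS and 10.77, 10.67, 10.43 and 10.29 in air, with a difference of 0.40 (SE 0.14, adjusted p = 0.0603). The alternative with array weights called Psmb9, Psmb10 and Psme2 (adjusted p = 0.0263, 0.0315 and 0.0115). Psme2 was also called with a replicate block (adjusted p = 0.0268) and without air array 1 or GMA-SS array 2 or 4 (adjusted p = 0.0421, 0.0334 and 0.0169). Psmb5, Psmb6 and Psmb7 had differences of 0.15, 0.12 and 0.15, none of which passed.

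In all, 3 of the 39 genes were called higher at 28 d, beside 7.66% of all genes, a share close to that among the members. Called lower were 0 of the 39, beside 8.67% of all genes. Groups did not overlap for 2 with GMA-SS higher and for 0 with GMA-SS lower, beside 6.93% and 8.79% of all genes. The median difference was 0.40 for the inducible genes and 0.07 for the others, beside -0.04 for all genes. The count was 5 without air array 1 or GMA-SS array 2 and 6 without GMA-SS array 4, whose omission brought Psmb9 to 0.63 (adjusted p = 0.00987). The change between the times was small against its error: it was -0.20 for Psmb8 (SE 0.28, adjusted p = 0.966) and between -0.20 and -0.04 for the other inducible genes, and no member was called for a difference between 28 d and 4 hr in any tissue.

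Markers shared by leukocytes, and many of T cells and macrophages, were higher in the same lungs. Of 10 leukocyte markers 8 were called higher at 4 hr and 10 at 28 d, with median differences of 0.60 and 0.82. Their summed level (log2) was 15.60 to 16.17 in GMA-SS arrays and 15.35 to 15.57 in air arrays at 4 hr, and 15.80 to 16.32 and 15.50 to 15.57 at 28 d. Of 8 T cell markers measured 7 were called higher at 4 hr and 6 at 28 d, among them Cd3g, a chain of the T cell receptor complex, by 1.05 at 4 hr. Of 8 macrophage markers 5 and 7 were called higher. The 7 neutrophil markers measured went both ways, with 1 called higher and 2 lower at 4 hr, and 2 and 1 at 28 d. Among 5 B cell markers 0 were called at either time, with median differences of -0.04 and 0.42. Natural killer cell markers had 1 and 2 of 6 called higher. Alveolar epithelium markers had 3 of 8 called higher and 0 lower at 4 hr, and 2 and 2 at 28 d. Markers of the remaining cell types were lower in part. Of 5 smooth muscle markers 3 were called lower at 4 hr and 4 at 28 d, of 5 cardiac muscle markers 3 and 1, of 5 erythroid markers 3 and 1, of 4 fat cell markers 2 and 1, and of 5 endothelium markers 0 and 2. The summed level (log2) of the cardiac muscle markers was 12.95 to 13.65 in GMA-SS arrays and 13.64 to 14.06 in air arrays at 4 hr, and that of the fat cell markers was 11.02 to 11.92 in GMA-SS arrays and 12.07 to 12.75 in air arrays. The part of these cell types in the proteasome results was not tested. Among the GMA-SS arrays, the 5 inducible genes and the leukocyte markers were in the same order at 4 hr, with array 2 highest at a mean of 12.04 for the inducible genes and a leukocyte sum of 16.17, and array 4 lowest at 11.62 and 15.60. At 28 d arrays 1 and 3 were highest in both, at means of 12.23 and 12.00 and sums of 16.29 and 16.32, and array 4 lowest in both, at 11.40 and 15.80. The T cell sums were in the order of the inducible genes at both times. Macrophage sums were not: at 4 hr array 4 was highest at 15.28 and array 2 lowest at 15.18, and at 28 d array 1 was lowest at 15.08. Nor were neutrophil sums at 4 hr, with array 1 lowest at 15.73. With the mean leukocyte level of each array as a covariate, an alternative chosen after seeing the data, 0 members were called at either time, Psmb8 had a difference of 0.28 at 4 hr (adjusted p = 0.504) and -0.27 at 28 d (adjusted p = 0.943), and of all genes 290 were called higher and 170 lower at 4 hr and 30 and 12 at 28 d. The covariate was itself higher after GMA-SS, with no overlap between the exposures at either time. In whole tissue, more cells of a type and more RNA per cell cannot be told apart.

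**Figure D3:**
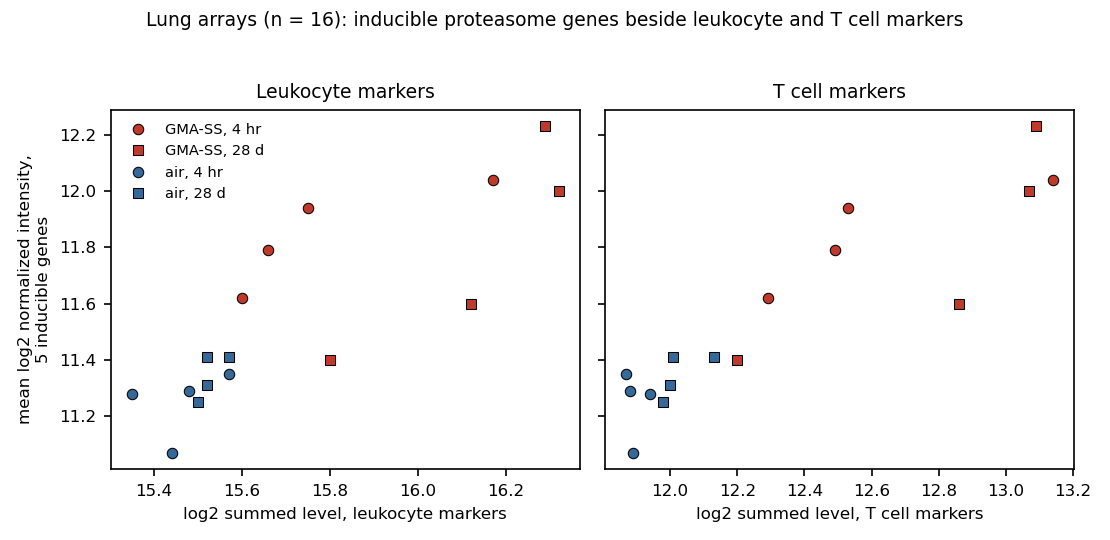
Mean log2 normalized intensity of the 5 inducible proteasome genes (y axis) in each of the 16 lung arrays against the log2 summed level of leukocyte markers (left) and T cell markers (right), with GMA-SS in red, air in blue, circles at 4 hr and squares at 28 d. The air arrays cluster at leukocyte sums of 15.35 to 15.57, and the GMA-SS arrays spread upward to 16.32 with inducible means of 11.40 to 12.23.

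Other genes of the same pathway were measured in lung from a list of genes that load class I molecules, of which 7 of 11 could be measured. At 4 hr 4 were called higher and 0 lower, and at 28 d 3 and 0. Tap1, which lies beside Psmb9 and pumps peptides into the endoplasmic reticulum, rose by 1.22 at 4 hr (2.32-fold, adjusted p = 0.00128) and by 0.87 at 28 d (adjusted p = 0.0156). H2-K1, a class I heavy chain, rose by 1.18 and 0.95 (adjusted p = 0.000783 and 0.00542). Tapbp, which holds class I molecules at the transporter, rose by 0.62 and 0.61 (adjusted p = 0.0221 and 0.0288). Of 11 genes measured that carry the interferon signal to the inducible proteasome genes, 4 were called higher at 4 hr and 5 at 28 d. Nlrc5, the class I transactivator, rose by 1.17 at 4 hr (adjusted p = 0.00891), with a difference of 0.68 at 28 d (adjusted p = 0.130). Irf1, which binds the Psmb9 promoter, had differences of 0.16 and 0.17 (adjusted p = 0.160 and 0.161). Ifng had a dim entry, above background on 2 GMA-SS arrays at 4 hr, 3 at 28 d and 0 air arrays at either time. Its differences were 0.40 at 4 hr (adjusted p = 0.0793) and 0.59 at 28 d (adjusted p = 0.0148). Since it passed the detection filter only through GMA-SS arrays, its call, counted among the 5 at 28 d, is not read as a result. Another list held 14 measured partners of the proteasome outside the naming rule, among them ubiquitin receptors, shuttle factors and its transcription factors. Of these 1 was called at 4 hr, the shuttle factor Rad23b at 0.25 (adjusted p = 0.0205), and 0 at 28 d. Nfe2l1, which drives the constitutive subunits when proteasome activity falls, had differences of 0.05 and -0.07 (adjusted p = 0.677 and 0.558). Of 4 genes measured for ubiquitin and its activation only Uba7, the activating enzyme of the ubiquitin-like protein Isg15, was called, at 0.67 and 0.50 (adjusted p = 0.000941 and 0.00946).

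Whether the inducible subunits changed more than the subunits they replace was asked by taking, within each array, the log2 value of the inducible gene minus that of its counterpart, and comparing this between exposures with a two-sided exact permutation test (18 tests in all). In lung at 4 hr Psmb8 gained 0.79 on Psmb5 after GMA-SS relative to air (higher in 4 of 4 GMA-SS arrays than in any air array, exact p = 0.0286, the smallest this design allows, and 0.386 adjusted over the 18). Psmb9 gained 0.51 on Psmb6 (exact p = 0.0571) and Psmb10 0.16 on Psmb7 (exact p = 0.114). At 28 d the gains were 0.68, 0.32 and 0.08 (exact p = 0.0857, 0.200 and 0.400). In blood the 6 values ran from -0.14 to 0.05 and in aorta from -0.04 to 0.35, of which the highest was Psmb9 against Psmb6 at 4 hr (exact p = 0.0857). No pair passed after adjustment, which at this smallest p would have needed 11 of the 18 tests to reach it.

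**Figure D4:**
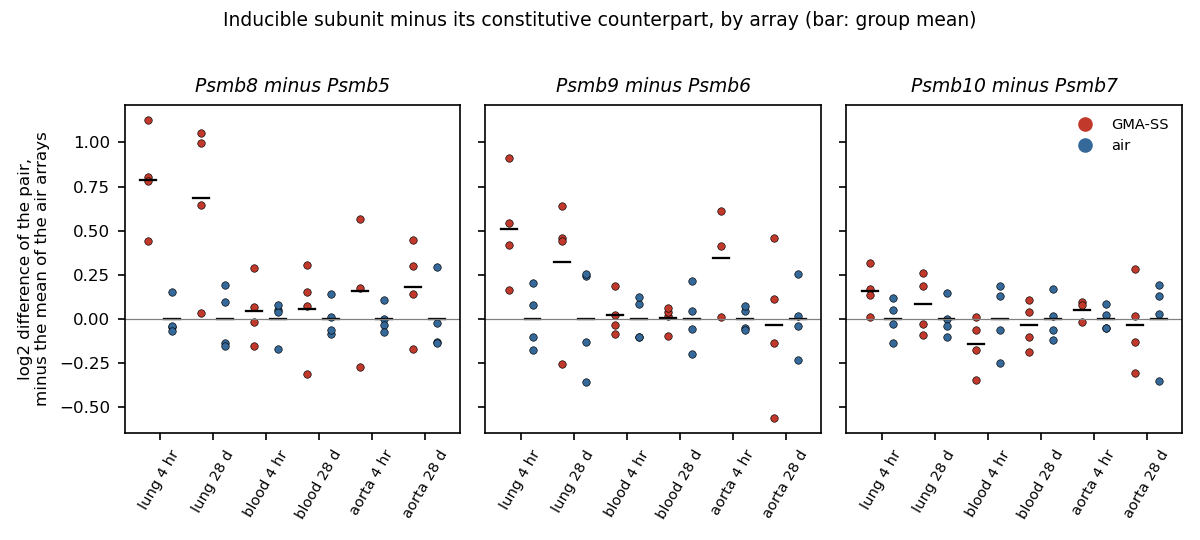
Log2 difference between an inducible subunit and its constitutive counterpart in each array, minus the mean of the air arrays of that comparison (y axis), for 3 pairs and 6 comparisons (x axis), with GMA-SS in red, air in blue and bars at group means. Only for Psmb8 minus Psmb5 in lung at 4 hr do the groups stand apart, by 0.79 on average.

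In whole blood cells no member was called at 4 hr or 28 d, where 0.0108% and 0% of all genes were called. At an unadjusted p under 0.05, 0 of 38 members passed at 4 hr, beside 5.01% of all genes, and 5 passed at 28 d, beside 7.75%. Psmb8 measured 8.64, 8.51, 8.43 and 8.32 after GMA-SS and 8.58, 8.37, 8.52 and 8.17 in air at 4 hr, and the groups overlapped (0.06, SE 0.11, 95% CI -0.18 to 0.30). At 28 d it measured 8.91, 8.75, 8.87 and 8.44 after GMA-SS and 8.51, 8.56, 8.69 and 8.46 in air (0.18, SE 0.11, 95% CI -0.06 to 0.42). GMA-SS arrays 1, 2 and 3 were above every air array and array 4 was below them. Psmb9, Psmb10, Psme1 and Psme2 had differences of -0.19 to 0.22 over both times, and Psmb5, Psmb6 and Psmb7 of -0.02 to 0.13. The lowest p in blood was that of Psmd1, the scaffold subunit of the base, at 28 d. It measured 6.56, 6.02, 5.93 and 5.99 after GMA-SS and 5.57, 5.47, 5.67 and 5.84 in air, so that the groups were apart (0.49, SE 0.16, adjusted p = 0.608). Psma7 (0.26), Psmd14 (0.17), Psmc3 (-0.19) and Psmd2 (-0.24) were the others under 0.05 without adjustment. Leukocyte markers in blood were between 16.25 and 16.43 after GMA-SS and between 16.31 and 16.34 in air at 4 hr (log2 sum).

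In aorta no member was called at either time, where 0% and 0% of all genes were called. Without adjustment 1 of 39 members was under 0.05 at 4 hr, beside 3.88% of all genes, and 0 at 28 d, beside 6.83%. That gene was Psmb9, which measured 8.57, 8.67 and 8.12 after GMA-SS and 8.05, 8.09, 8.05 and 7.92 in air at 4 hr. GMA-SS array 3 was only just above the air arrays, and the difference was 0.43 (SE 0.20, adjusted p = 1.00). Psmb8 measured 6.36, 6.56 and 5.81 after GMA-SS and 5.97, 6.09, 6.08 and 5.97 in air, with the same array 3 lowest (0.22, SE 0.15, 95% CI -0.11 to 0.55). Psme1 measured 10.59, 10.68 and 10.57 after GMA-SS and 10.46, 10.54, 10.54 and 10.38 in air (0.13, SE 0.06, adjusted p = 1.00). Its groups were narrowly apart. Psme2 had a difference of -0.09 and Psmb10 of 0.09 at 4 hr. At 28 d the 5 inducible genes had differences of -0.14 to 0.03, and Psmb5, Psmb6 and Psmb7 of -0.16 to -0.01. Summed leukocyte markers in aorta at 4 hr were 11.15 to 11.86 after GMA-SS and 11.28 to 11.54 in air, with Ptprc and Itgb2 not measured there.

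**Figure D5:**
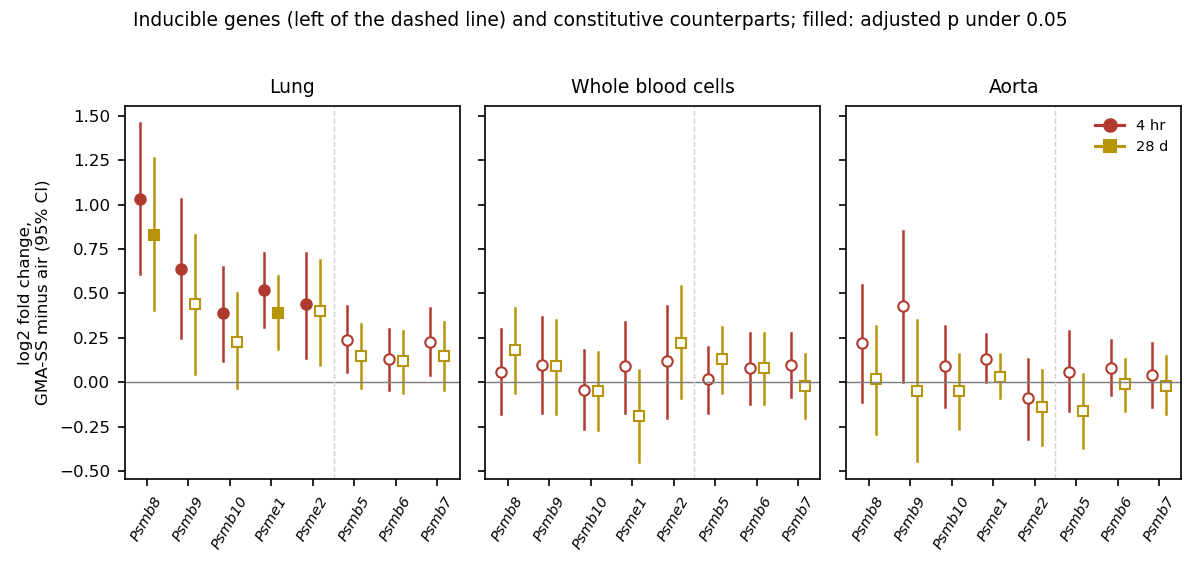
Log2 fold change, GMA-SS minus air, with its 95% CI (y axis) of the 5 inducible genes and the 3 constitutive counterparts (x axis) in lung, whole blood cells and aorta, with circles at 4 hr and squares at 28 d. Filled points, with an adjusted p under 0.05, occur only in lung. The intervals of blood and aorta cross 0 for every gene but Psmb9 in aorta at 4 hr, whose interval starts at 0.00. That of Psme1 in aorta at 4 hr crosses 0 so narrowly that it is also drawn from 0.00.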

How the data were processed

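The authors deposited the average signal of each entry, a linear bead intensity that was not normalized, exported from BeadStudio. The authors deposited a detection p-value with each, which counts how many negative controls reach that brightness and moves in steps of 1 in 798. The authors also deposited normalized log2 values made with lumi and limma, used here as an alternative. No column of the 141 was left out. The lung and blood tables carry no symbols and were joined to those of the aorta table by the identifier of the entry, after which symbols were updated through Entrez numbers (16590 entries) and RefSeq accessions (883), with 665 kept as in the file.

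The normexp correction of limma 3.58.1 (R 4.3.3) took out background, its negative controls being inferred from the detection p-values of entries that read a single probe. Then 16 was added, log2 was taken and the arrays of each tissue were quantile-normalized. Entries with a detection p under 0.05 on 3 or more arrays of a tissue were kept, and the brightest entry stood for a symbol. Group means were estimated by limma from all arrays of a tissue, with a moderated, intensity-dependent variance, and p-values were adjusted by Benjamini-Hochberg over all genes of the tissue. Exchange pairs were compared by exact permutation over arrays. The fit was checked on simulated data. The replicate numbers follow the order of the animal numbers in the labels, and no label pairs an air mouse with a GMA-SS mouse. Nothing shows separate processing of the samples beyond the labels, and p-values measure the spread between these arrays.

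The members and lists were chosen with earlier results of these data known. Genes named were the 5 inducible genes and their 3 counterparts in every comparison, in each comparison up to 8 called members in each direction or the 3 lowest p-values where none was called, members with a low-value limit, and up to 4 genes with the lowest p of each other list. A gene that this rule names is not reported here. Psma5, Psmd14, Psmc6, Psmd2, Irf1, Ifng, Nfe2l1 and Nlrc5 are also named where described, chosen after their values were seen. Alternatives were values without background correction, 75th percentile scaling, other filters, the deposited normalized values, each beadchip alone, array weights, a replicate block and leaving out each array.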

Additional observations from a re-analysis of the deposited data

Results flagged for a closer look

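Of 115 groups of 4 arrays checked among the named members, 5 held an array far from the others, where chance gives about 1 in 20. Psme1 in lung was 12.65 in air array 4 at 4 hr, with the other air arrays at 12.82 to 12.83. Psmd1 in blood was 6.56 in GMA-SS array 1 at 28 d, with the others at 5.93 to 6.02. Psmb7 in aorta was 11.06 in GMA-SS array 2 at 28 d (others 11.42 to 11.44) and 11.39 in air array 2 at 4 hr (others 11.48). Psmb10 in aorta was 9.26 in air array 3 at 28 d, with the others at 9.69 to 9.77.

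For Psme2, Psmd8 and Psmd10 every GMA-SS array lay above the air arrays in lung at 4 hr and below them in aorta at 4 hr. In lung 20 of the 39 members lay apart above air, beside 12.0% of all genes. In aorta, with 3 arrays against 4, 4 of 39 members lay apart above air and 4 below, and 0 were called. The share of all genes that lay apart was not counted in aorta. Psme2 had a difference of -0.09 in aorta and 0.44 in lung, Psmd8 of -0.13 and 0.24, and Psmd10 of -0.13 and 0.19. The differences between the tissues were not tested.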

How the results depend on the processing

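Psmb8 and Psme1 in lung at 4 hr, and Psmb8 at 28 d, kept their direction and call under every alternative except the leukocyte covariate. The count of members called higher in lung, 9 at 4 hr and 3 at 28 d, was 14 and 1 with each beadchip fitted alone and 14 and 8 with array weights, which also called 1 member lower at 28 d, and leaving out single arrays gave 4 to 8 and 2 to 6, with 0 to 1 lower at 28 d. The calls of Psmb10 and Psme2 at 4 hr and of Psmb1 at 28 d were lost with 75th percentile scaling (adjusted p = 0.0832, 0.0514 and 0.0552) and with the deposited normalized values (adjusted p = 0.0570, 0.0549 and 0.0520). At 4 hr 75th percentile scaling also lost those of Psmd12 and Psma5 (adjusted p = 0.0595 and 0.0501). Testing entries without a detection filter lost those of Psmb10 and Psma5 at 4 hr and of Psmb1 at 28 d (adjusted p = 0.0530, 0.0586 and 0.0578). Each beadchip alone lost those of Psme1 and Psmb1 at 28 d (adjusted p = 0.0501 and 0.131). Same-numbered arrays did not deviate together in every pair (r of -0.04 to 0.15 in lung at 4 hr), and a replicate block gave 5 members called higher in lung at 28 d. The leukocyte covariate, chosen after seeing the data, gave 0 members called at both times and turned Psmb9 to -0.02 at 4 hr and, at 28 d, Psmb8 to -0.27, Psmb9 to -0.53, Psmb10 to -0.30, Psme2 to -0.05, Psmb7 to -0.06 and Psmb1 to -0.08. With it the genes called in lung fell to 290 higher and 170 lower at 4 hr and 30 and 12 at 28 d, against 1066, 1105, 853 and 965. Over all genes, each beadchip alone called 523 lower in lung at 28 d and 7 in blood at 4 hr (against 1), array weights called 4 in blood at 4 hr, 3 higher and 8 lower in blood at 28 d and 2 in aorta at 4 hr, and 75th percentile scaling called 1 in blood at 28 d. Leaving out air array 1 or 3 or GMA-SS array 2 called 0 in blood at 4 hr, and leaving out GMA-SS array 4 called 3 higher and 1 lower at 28 d. The cause of these changes was not tested.

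Small values near 0 changed sign. Scaling to the 75th percentile gave -0.01 for Psmb5 in blood at 4 hr and -0.02 for Psme1 in aorta at 28 d, and brought Psmb9 minus Psmb6 in aorta at 4 hr to 0.38 (exact p = 0.0286). The deposited normalized values gave -0.02 for Psmb8 minus Psmb5 in aorta at 4 hr and 0.01 for Psmb6 in aorta at 28 d, and array weights gave 0.02 for Psmb6 and 0.04 for Psmb7 there. Leaving out single arrays, the pair Psmb8 minus Psmb5 ran from 0.68 to 0.91 in lung at 4 hr (exact p = 0.0571 without air array 1, 3 or 4), from 0.56 to 0.90 at 28 d, from -0.03 to 0.11 in blood at 4 hr, from -0.03 to 0.18 in blood at 28 d and from -0.05 to 0.37 in aorta at 4 hr. Psmb9 minus Psmb6 ran from 0.38 to 0.62 in lung at 4 hr, from -0.03 to 0.06 in blood at 4 hr and from -0.20 to 0.14 in aorta at 28 d. Psmb10 minus Psmb7 ran from -0.08 to 0.02 in blood and from -0.15 to 0.06 in aorta at 28 d. In blood at 4 hr Psmb8 ran from -0.02 to 0.12, Psmb10 from -0.10 to 0.01 and Psmb5 from -0.04 to 0.06. In blood at 28 d Psmb9 ran from -0.01 to 0.19, Psmb10 from -0.10 to 0.01, Psmb6 from -0.01 to 0.16 and Psmb7 from -0.07 to 0.03. In aorta at 28 d Psmb8 ran from -0.05 to 0.09, Psmb9 from -0.22 to 0.12, Psmb10 from -0.17 to 0.01, Psmb6 from -0.06 to 0.06 and Psmb7 from -0.06 to 0.08.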
